A study of Mus musculus with 6 samples.

Results

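Met, Hgf and Gab1 form a receptor, ligand and adaptor set. They were chosen by name, as the 3 genes whose symbol the array annotation gives as Met, Hgf or Gab1, among 22180 genes measured. Each was read by 1 probe set, 17456176 for Met, 17434933 for Hgf and 17510823 for Gab1. Gene expression was measured by single-colour microarray on total RNA in 2 groups of 3 mouse samples. The first group was undifferentiated embryonic stem (ES) cells, which are pluripotent. The second was Pax7-GFP cells, GFP-positive cells isolated by flow cytometry after 3 weeks of differentiation of ES cell lines toward skeletal muscle. Pax7, whose reporter the sort used, encodes a paired-box factor that marks muscle progenitor and satellite cells. The strain, the number of clones and the structure of the reporter are unknown here, and sorting is described for the differentiated cultures, with undifferentiated cultures setting the gate.

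Hepatocyte growth factor is secreted as an inactive single chain, which proteases outside the cell cut into the active form. The active factor binds Met, a receptor tyrosine kinase, and the phosphorylated receptor recruits the docking protein Gab1, which assembles phosphatases, kinases and adaptors of the Ras-Erk and PI3 kinase routes. In the embryo, Met is needed for muscle precursors to leave the somite and enter the limb, and in adult muscle the factor helps to wake quiescent satellite cells.

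The labelled cell types were checked against marker genes. Of 10 myogenic markers, 9 were higher in Pax7-GFP cells, against 7.34% of all genes, and 1, Vcam1, was not called. The 10 include Pax7, whose reporter the sort used, so that marker is no independent check. All 10 pluripotency markers were lower, against 7.15% of all genes. The mean log2 signal over the myogenic list ran from 6.02 to 6.10 among ES arrays and from 10.15 to 10.37 among Pax7-GFP arrays. Array medians lay between 5.61 and 5.69, and arrays correlated across genes at 0.987 or more within a group and at 0.905 or less between groups. These correlations run across genes, which are no replicates, and describe the arrays only.

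The 250 bases before the annotated start of each of the 3 genes are shown because the genes behaved in 3 different ways, with Met higher, Gab1 lower and Hgf not called. The sequences are from RefSeq on GRCm38.p6, written 5′ to 3′ along each gene's strand. The table lists 1 start for Met and 2 each for Hgf and Gab1, and the outermost start was used. Capitals mark matches on either strand to the searched motifs, which were the E-box CANNTG, the GC box GGGCGG, the AP-1 motif TGAGTCA, and ATTA and TATAAA.
Met, chr6:17463707-17463956, plus strand: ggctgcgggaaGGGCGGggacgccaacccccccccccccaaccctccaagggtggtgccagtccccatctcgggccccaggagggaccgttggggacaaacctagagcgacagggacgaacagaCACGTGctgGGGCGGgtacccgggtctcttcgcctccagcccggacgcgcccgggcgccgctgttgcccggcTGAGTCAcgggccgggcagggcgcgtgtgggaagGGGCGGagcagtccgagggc
Hgf, chr5:16553245-16553494, plus strand: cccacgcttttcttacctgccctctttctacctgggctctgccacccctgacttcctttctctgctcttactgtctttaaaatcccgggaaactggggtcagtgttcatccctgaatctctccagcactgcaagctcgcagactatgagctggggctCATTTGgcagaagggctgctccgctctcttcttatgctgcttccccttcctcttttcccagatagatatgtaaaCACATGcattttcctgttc
Gab1, chr8:80880520-80880769, minus strand: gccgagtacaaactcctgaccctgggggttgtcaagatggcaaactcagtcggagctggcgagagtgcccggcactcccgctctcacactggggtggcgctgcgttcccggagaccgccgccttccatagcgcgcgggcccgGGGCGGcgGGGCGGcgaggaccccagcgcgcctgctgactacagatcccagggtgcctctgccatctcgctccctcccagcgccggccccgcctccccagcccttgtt

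The Met window held 1 E-box, 3 GC boxes and 1 AP-1 motif. The Hgf window held 2 E-boxes and the Gab1 window 2 GC boxes. ATTA and TATAAA matched in 0 of the 3 windows, and no match overlapped a match of another motif. Over 32851 windows of the same length in the table, 66.2% held an E-box, 32.7% a GC box, 4.46% the AP-1 motif, 54.9% ATTA and 12.4% TATAAA. The Met and Gab1 windows were both rich in CpG, with 24 CG dinucleotides each against a median of 6 over all windows, and 88% of windows had fewer. The Hgf window had 4. These matches describe letters in short windows, and no binding was measured.

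Met, the receptor, was low in ES cells and high in Pax7-GFP cells. Its log2 signals were 4.86, 5.55 and 5.06 in the ES samples and 10.39, 10.09 and 10.19 in the Pax7-GFP samples. All 3 ES values lay below their array's median, all 3 Pax7-GFP values lay far above it, and the groups did not overlap. The means were 5.16 ± 0.35 and 10.22 ± 0.15 (SD, n = 3 each). The log2 fold change (Pax7-GFP minus ES) was 5.07 with a 95% interval from 4.67 to 5.47, a 33.5-fold ratio of signals, and limma's adjusted p over all genes was 1.78e-07. Met ranked 18 of 22180 genes from the highest change to the lowest. ES replicate 2 was the highest of the ES samples, and without it the log2 fold change was 5.26. The background for this call is that 14.5% of all genes passed the same rule (a 2-fold or larger difference with adjusted p under 0.05), 7.34% as higher and 7.15% as lower in Pax7-GFP cells. Each sample was RNA from many cells together, so the share of cells with Met and the amount of its RNA per cell cannot be told apart.

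Hgf, the ligand, was low in both groups and did not differ between them beyond their spread. Its log2 signals were 4.36, 4.31 and 4.44 in the ES samples and 4.38, 4.36 and 4.34 in the Pax7-GFP samples. The 3 Pax7-GFP values fell inside the ES range, and all 6 lay below the lower quartile of their array, which ran from 4.42 to 4.50. The means were 4.37 ± 0.067 and 4.36 ± 0.021 (SD, n = 3 each). The log2 fold change was -0.014 with a 95% interval from -0.19 to 0.17 (limma, adjusted p = 0.916). The interval leaves out a 2-fold difference of the signals in either direction, but RMA compresses differences near background. No detection calls accompany the values, so the transcript cannot be called absent.

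Gab1, the docking protein, was high in ES cells and lower in Pax7-GFP cells, though still above the array medians. Its log2 signals were 10.63, 10.69 and 10.71 in the ES samples and 9.13, 8.75 and 8.62 in the Pax7-GFP samples. The ES values were tight, the Pax7-GFP values more spread with replicate 1 the highest, and the groups did not overlap. The means were 10.68 ± 0.042 and 8.83 ± 0.27 (SD, n = 3 each). Gab1 fell by 1.84 on the log2 scale (SE 0.13, 95% interval -2.15 to -1.54), or 3.59-fold (limma, adjusted p = 1.11e-05). It ranked 552 of 22180 genes from the lowest change upward. Receptor and docking protein thus moved in opposite directions between the groups.

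**Figure D1:**
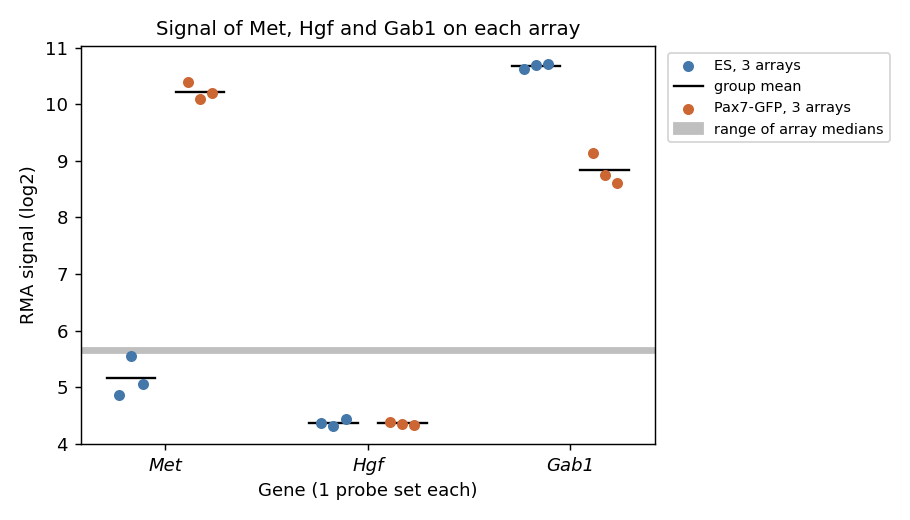
The log2 RMA signal (vertical axis) of Met, Hgf and Gab1 on each of 3 ES and 3 Pax7-GFP arrays is plotted with group means as bars and the range of array medians, 5.61 to 5.69, as a grey band. Met sits below the band in ES cells and above 10 in Pax7-GFP cells, Hgf stays below it on all 6 arrays, and Gab1 is lower in Pax7-GFP cells.

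The exact permutation test of single values cannot go below p = 0.10 (two-sided) with 3 samples against 3. It gave 0.10 for Met and for Gab1 and 0.80 for Hgf. Differences between 2 genes within an array show unequal change without setting one probe set's level against another's. The Met minus Gab1 difference was between -5.77 and -5.14 on the ES arrays and between 1.26 and 1.58 on the Pax7-GFP arrays, a shift of 6.91 between the group means. This pair reached the smallest exact permutation p, 0.10, which was also 0.10 after Benjamini-Hochberg adjustment over the 3 pairs computed. Since Met rose and Gab1 fell without overlap, that outcome was fixed by the single changes. It restates them and adds no support. The pairs with Hgf restate the changes of Met and Gab1, since Hgf lay near background on all 6 arrays, and are not used.

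Among receptor tyrosine kinases, Met and Fgfr4 stood apart from the rest at the upper end. This family list was written after values had been seen, and it is described by counts only. Of 58 genes listed, 56 were measured, of which 12 rose, 5 fell and the other 39 did not pass, a called share of 30.4% against 14.5% of all genes. The median log2 fold change was 0.19, against 0.024 over all genes. Fgfr4, which binds fibroblast growth factors on myogenic cells, stood at 5.08 with a 95% interval from 4.71 to 5.44, which overlaps that of Met. The next was Musk, the receptor that organises the neuromuscular junction, at 3.20, and its interval did not reach that of Met. Mst1r, which encodes Ron, the closest relative of Met, was low in both groups and was not called. Its log2 signals were 5.07, 5.03 and 5.09 in ES and 4.98, 5.24 and 5.03 in Pax7-GFP samples, overlapping between groups, with a log2 fold change of 0.020 (95% interval -0.19 to 0.23, limma adjusted p = 0.896). Mst1, the ligand of Ron, was at -0.13 (limma, adjusted p = 0.399). At the other end Kit, the stem cell factor receptor, stood at -3.42.

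**Figure D2:**
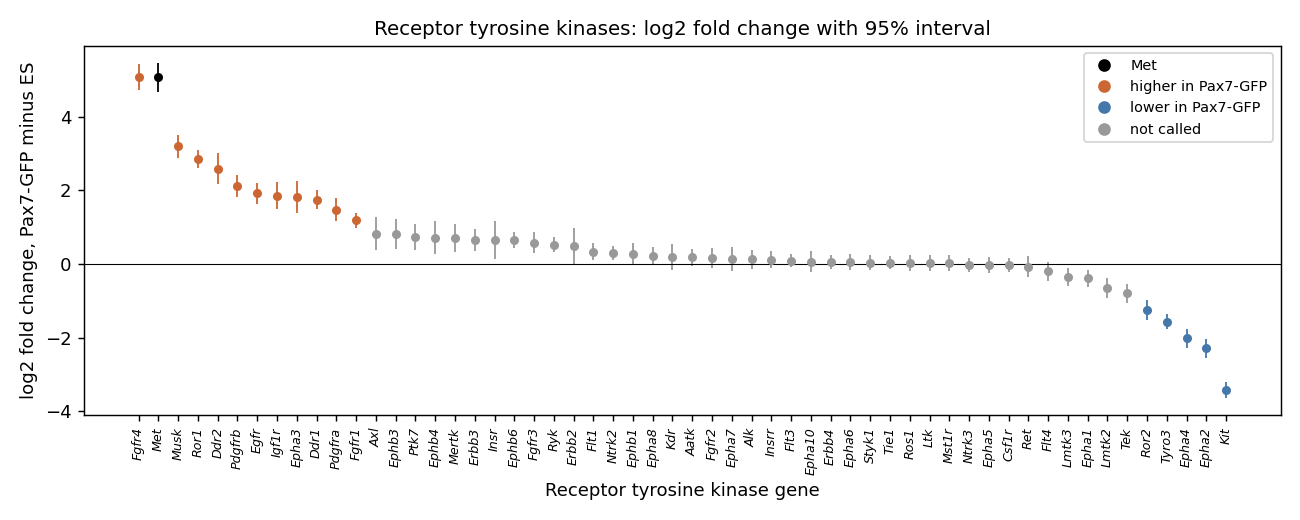
The log2 fold change (Pax7-GFP minus ES, vertical axis) of 56 measured receptor tyrosine kinase genes is ordered from highest to lowest, with 95% intervals as bars and Met in black. Fgfr4 at 5.08 and Met at 5.07 lie above Musk at 3.20, and Kit at -3.42 is the lowest.

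Proteases of the class that activates the ligand outside the cell, and their inhibitors, moved in both directions. Of 11 measured members of this list, which also holds Mst1 and plasminogen as relatives of Hgf, 2 rose, 3 fell and 6 did not pass, a called share of 45.5% against 14.5% of all genes. The plasminogen activators rose. Plat, the tissue-type activator, had log2 signals of 6.07, 6.06 and 6.11 in ES and 8.77, 9.74 and 9.80 in Pax7-GFP samples, and its log2 fold change was 3.36 (SE 0.25, limma adjusted p = 1.32e-05). Replicate 1 was the lowest of the Pax7-GFP samples for Plat, and the groups did not overlap. Plau, the urokinase-type activator, went from 6.06, 6.30 and 6.05 to 8.66, 8.60 and 8.69, a log2 fold change of 2.51 (limma, adjusted p = 3.07e-07).

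The membrane inhibitors of the HGF-cutting proteases fell, together with one of those proteases. Spint2 went from 9.17, 9.29 and 9.16 in ES to 7.01, 7.09 and 6.81 in Pax7-GFP samples, a log2 fold change of -2.24 (limma, adjusted p = 6.58e-07). Spint1 went from 8.11, 8.46 and 8.25 to 6.47, 6.42 and 6.14, a log2 fold change of -1.93 (limma, adjusted p = 6.34e-06). St14, which encodes the membrane protease matriptase, stood at -1.58 (limma, adjusted p = 1.21e-05), with means of 7.64 ± 0.14 in ES and 6.06 ± 0.17 in Pax7-GFP cells (SD, n = 3 each). In none of these 3 genes did the groups overlap. Hgfac, the serum protease that activates the factor, was at 0.13 (95% interval -0.17 to 0.43) and Hpn, the membrane protease hepsin, at 0.17 (-0.048 to 0.38), with overlapping groups in both. Spint1, Spint2 and St14 are typical of epithelia. Of 10 epithelial markers, 2 fell, 1 rose and 7 did not pass, a called share of 30% against 14.5% of all genes. The list's mean log2 signal ran from 6.75 to 6.81 in ES and from 6.01 to 6.09 in Pax7-GFP arrays. The called markers, named after their values were seen, were Cdh1 at -3.96, Epcam at -4.53 and Krt8 at 1.29. The list's median log2 fold change was -0.090, so the lower mean does not show a general fall of the list. Any part of these markers in the falls of Spint1, Spint2 and St14 was not tested.

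**Figure D3:**
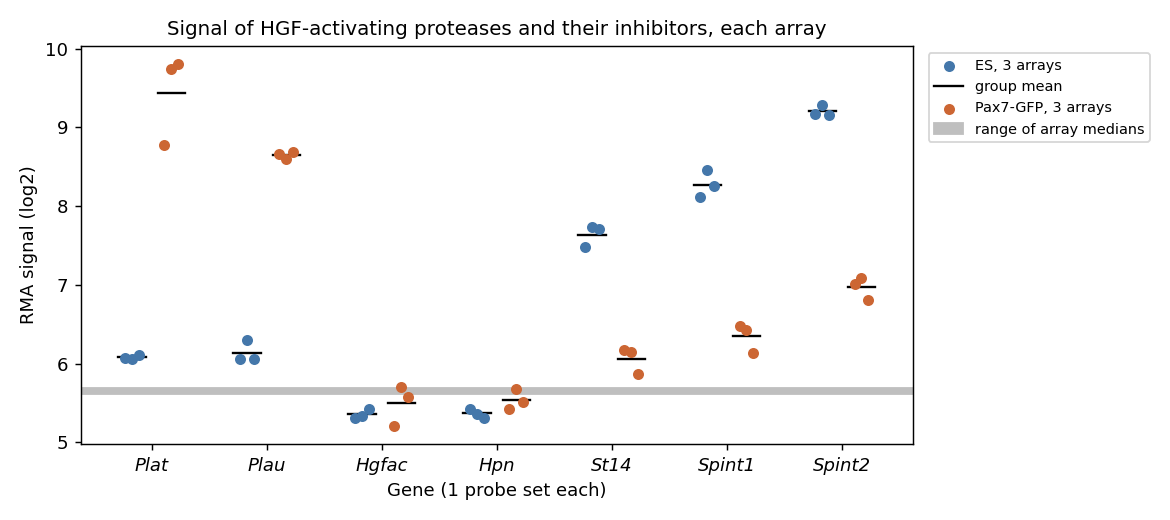
The log2 RMA signal (vertical axis) of 7 genes for HGF-activating proteases and their inhibitors is plotted for each array, with group means as bars and the range of array medians as a grey band. Plat and Plau are higher in Pax7-GFP cells, St14, Spint1 and Spint2 are lower, and Hgfac and Hpn overlap between the groups.

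Among docking proteins, Gab2 and Irs1 moved the opposite way to Gab1. Gab2 had log2 signals of 5.93, 5.66 and 5.59 in ES and 8.79, 7.46 and 7.66 in Pax7-GFP samples. Its log2 fold change was 2.25 (SE 0.31, 95% interval 1.53 to 2.96, limma adjusted p = 5.04e-04), and it was 1.83 without Pax7-GFP replicate 1, the highest sample. Gab3 was low, at 4.42, 4.45 and 4.29 in ES and 5.14, 4.49 and 4.29 in Pax7-GFP samples, and was not called at 0.25 (limma, adjusted p = 0.371). Pax7-GFP replicate 1 was the highest Pax7-GFP sample for Gab1, Gab2 and Gab3 alike. Irs1, a docking protein of the insulin and insulin-like growth factor receptors, rose from 6.31, 5.89 and 6.24 to 10.33, 10.23 and 10.31, a log2 fold change of 4.14 (limma, adjusted p = 7.17e-08). Irs2, named after its values were seen, rose by 2.05.

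**Figure D4:**
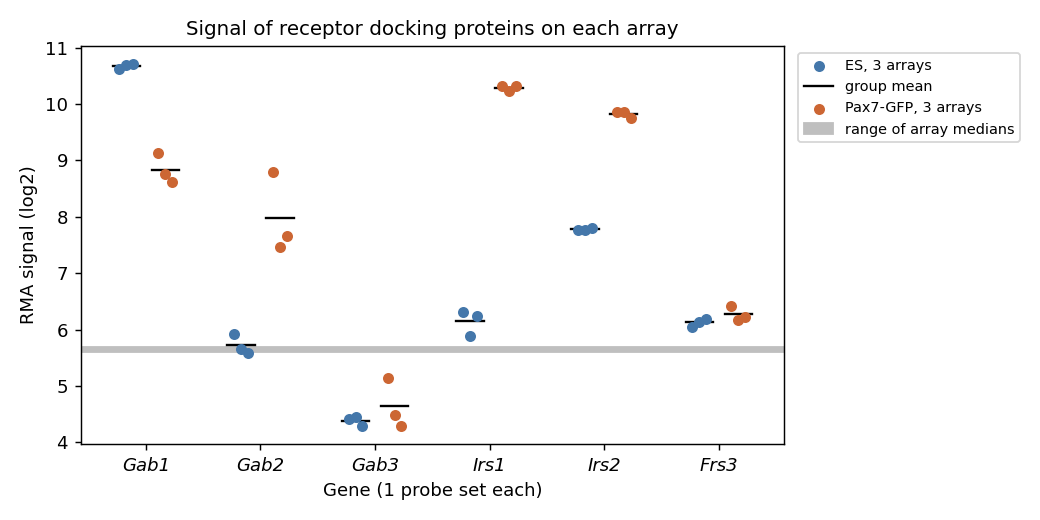
The log2 RMA signal (vertical axis) of 6 docking protein genes is plotted for each array, with group means as bars and the range of array medians as a grey band. Gab1 is lower in Pax7-GFP cells, Gab2, Irs1 and Irs2 are higher, and Gab3 and Frs3 overlap between the groups.

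Over the whole list of adaptors and transducers, 31 of 39 genes were measured, and 5 were higher, 3 lower and 23 not called, a called share of 25.8% against 14.5% of all genes. Of the 23, 15 were past the p threshold alone, a threshold that 41.1% of all genes passed. Grb2, Ptpn11 and Sos1 were not called. Grb2, the adaptor that links Met to Gab1 and to Ras exchange factors, was at -0.32 (limma, adjusted p = 0.0135). Ptpn11, the Shp2 phosphatase that Gab1 recruits, was at 0.60 (limma, adjusted p = 3.80e-04). Sos1, a Ras exchange factor, was at 0.15 (limma, adjusted p = 0.301). The largest falls were those of Pik3cb, a catalytic subunit of PI3 kinase, at -3.12 and Elmo1, a partner of the Rac activator Dock1, at -2.82. The third was Src, a kinase that can bind Met, at -1.01, named after its values were seen. Src barely passed the 2-fold minimum and ran from -1.14 to -0.86 without single arrays, so its call depended on the arrays used.

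Among cell-surface partners of Met, 3 of 17 were higher, 2 lower and 12 not called, so 29.4% were called against 14.5% of all genes. Cd44, a hyaluronan receptor that can act as a co-receptor of Met, rose by 2.40, from 6.20, 6.45 and 6.50 to 8.64, 8.82 and 8.87 (limma, adjusted p = 7.97e-07). Nrp1, a neuropilin, rose by 2.08 and Egfr, the epidermal growth factor receptor, by 1.91 (limma, adjusted p = 1.99e-05 and 6.61e-06). Nrp2, the other neuropilin, fell by 1.74. Plxnb1, a plexin that associates with Met, was at 0.43 with a 95% interval from -0.076 to 0.94.

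Negative regulators were mixed. Of 25 measured, 4 were higher, 3 lower and 18 not called, with a median log2 fold change of 0.013. The called share was 28% against 14.5% of all genes. The ubiquitin ligase Cbl, which drives degradation of activated Met, was at -0.50 and its relative Cblb at 0.81, both short of a 2-fold difference (limma, adjusted p = 0.0256 and 9.70e-05). Ptprj, a phosphatase that acts on Met, fell by 1.15 (limma, adjusted p = 5.34e-04), and it stood at -0.95, below the 2-fold minimum, without Pax7-GFP replicate 2. Spry1, a Sprouty inhibitor of receptor signalling, rose by 2.42 (limma, adjusted p = 6.87e-07), whereas Spry2 was at 0.16 and Spry4 at -0.048. The sign of Spry4 turned with quantile normalization. Inpp5d, the SHIP1 phosphatase best known from blood cells, showed the largest fall, from 9.70, 9.87 and 9.79 to 5.57, 5.49 and 5.57, a log2 fold change of -4.24 (limma, adjusted p = 1.87e-08). Sh3gl3, an endophilin, fell by 3.08, and the proteoglycan Dcn, which can bind Met, rose by 3.03. Of 8 haematopoietic markers, 2 were lower and 0 were higher, a called share of 25% against 14.5% of all genes. Those that fell with Inpp5d were Laptm5, from a mean of 8.24 to 5.43, and Cd68, from 9.15 to 7.59, while Ptprc, which defines that lineage, was at 4.64 in both groups. Tyrobp and Fcer1g, named after their values were seen, went the other way, at 0.54 and 0.61, past the p threshold alone. The list's mean log2 signal ran from 6.01 to 6.05 in ES and from 5.49 to 5.73 in Pax7-GFP arrays. Its median log2 fold change was -0.013, so the lower mean does not show a general fall of the list. Any part of these markers in the fall of Inpp5d was not tested.

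Transcripts that respond to Erk signalling were more often higher than lower. Of 15 measured, 6 rose, 1 fell and 8 did not pass, so 40% were higher against 7.34% of all genes. Phlda1 rose by 2.77, and Egr1 and Fos, which also respond to cell dissociation, by 5.91 and 4.34. Etv4, an ETS factor, fell by 1.79 (limma, adjusted p = 4.31e-06). Dusp6, the Erk phosphatase, had log2 signals of 8.65, 8.74 and 8.79 in ES and 9.16, 10.04 and 9.87 in Pax7-GFP samples, a log2 fold change of 0.97 that missed the 2-fold minimum (limma, adjusted p = 0.00521). It passed at 1.23 without Pax7-GFP replicate 1, its lowest Pax7-GFP sample. Whether the ES cells used for RNA were sorted is not stated, so the sort and the cell type cannot be told apart for these transcripts.

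In the list drawn up around Met in migrating muscle precursors, 7 of 14 measured genes were higher, 1 lower and 6 not called. The called share was 57.1% against 14.5% of all genes. The 7 include Pax7, Myf5 and Myod1, which are also in the myogenic marker list, whereas Pax3 and Lbx1 were not called. The share is therefore no measure of a migrating state. Cxcr4, a chemokine receptor of migrating precursors, rose by 3.10, from 6.57, 6.26 and 6.44 to 9.32, 9.75 and 9.49 (limma, adjusted p = 5.66e-07). Pax3, which acts upstream of Met in the embryo, went from 5.83, 5.59 and 5.72 to 6.70, 6.44 and 6.67. Its groups did not overlap, and its log2 fold change of 0.89 was short of the 2-fold minimum (limma, adjusted p = 2.10e-04). Lbx1, a homeobox factor of migrating limb precursors, was at 0.38 (limma, adjusted p = 0.00928). Pax7 itself, whose reporter was used for the sort, rose by 5.20, and Myf5 and Myod1 by 5.16 and 5.09. Epha4, an ephrin receptor, fell by 2.02.

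**Figure D5:**
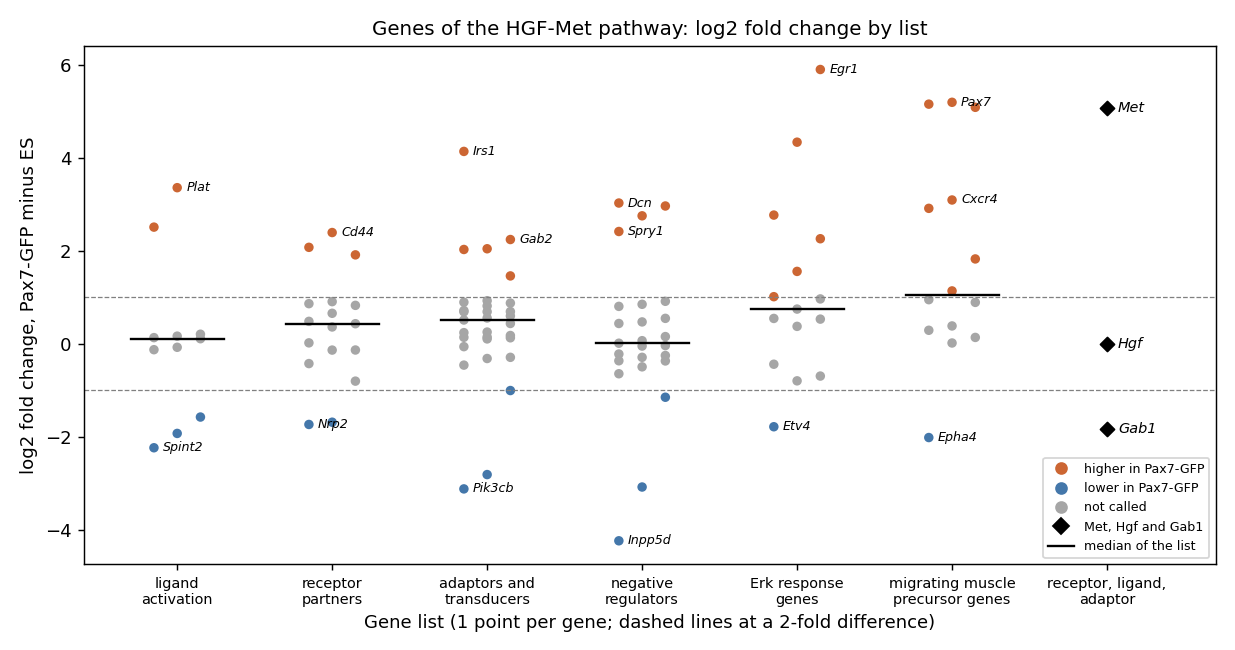
The log2 fold change (Pax7-GFP minus ES, vertical axis) of each measured gene is plotted by list, with list medians as bars, 2-fold differences as dashed lines and Met, Hgf and Gab1 as diamonds. List medians run from 0.013 for negative regulators to 1.04 for the list on migrating muscle precursors, while Met stands at 5.07, Hgf at -0.014 and Gab1 at -1.84.

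Counting each gene once and leaving out Met, Hgf and Gab1, 113 of 126 pathway genes were measured. Of these 27 rose, 13 fell and 73 did not pass, 44 of the last past the p threshold alone. The called share was 35.4% against 14.5% of all genes, and the median log2 fold change was 0.43 against 0.024. The lists hold muscle and immediate early genes chosen with earlier results known, so the share describes these lists only.

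The genes whose pattern over the 6 arrays was most like that of each member were found by distance between log2 values after each gene's mean was subtracted. Nearest to Met were Sparcl1, Ifi27, Fndc3c1, Eya4 and Fgfr4, at distances of 0.289 to 0.528, with log2 fold changes between 4.87 and 5.25. Sparcl1, a secreted matrix protein, had signals of 5.23, 5.57 and 5.40 in ES and 10.71, 10.28 and 10.44 in Pax7-GFP samples, sharing with Met the high ES replicate 2 and the high Pax7-GFP replicate 1. Nearest to Gab1 were Lpin1, Pnpla6, Mpv17l, Tpd52l1 and Anxa3, at distances of 0.125 to 0.174. Lpin1, a phosphatidate phosphatase of lipid synthesis, went from 8.43, 8.56 and 8.55 to 7.05, 6.68 and 6.55, with the same order of Pax7-GFP samples as Gab1. Nearest to Hgf were Samt3, Vmn1r222, 4933406I18Rik, Slc25a21 and Prl3c1, at distances of 0.033 to 0.049. All 5 were dim, with group means between 3.50 and 4.10, and were not called, so this likeness describes small variations near background that the arrays share. Samt3, Vmn1r222 and Prl3c1 belong to families of similar genes, whose probe sets may not separate single copies.

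Fibroblasts and other mesenchymal cells are a usual source of HGF in muscle. Of 11 measured mesenchymal markers, 6 rose, 0 fell and 5 did not pass, so 54.5% were higher against 7.34% of all genes. The list's mean log2 signal ran from 6.58 to 6.83 in ES and from 7.98 to 8.44 in Pax7-GFP arrays. Hgf remained between 4.31 and 4.44 on the same arrays, below the lower quartile of each. Which cells carried the mesenchymal markers, and any bearing of these markers on Hgf, was not tested.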

How the data were processed

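Per the labels' protocols, biotinylated cRNA was made from total RNA with 2 rounds of amplification. Per the submitters' processing notes, signals came from RMA in R 2.12.1, and the deposited values are log2 RMA signals in 41345 rows. RMA options and genome build: not given in the sources used here. Rows were named through GEO's platform annotation (23521 with 1 symbol, 1814 with several, 16010 unnamed), and each gene was read from its brightest probe set among those with 1 symbol, 22180 genes in all. Groups came from the titles. These name biological replicates without saying whether cultures were separate, so a p-value reflects only sample-to-sample spread. In limma this spread is partly pooled over all genes. The number of arrays limits the precision. The groups were compared with limma 3.58.1 in R 4.3.3 (two-sided), Benjamini-Hochberg adjusted over all genes, after the code was tested on simulated data. The members and lists were chosen with earlier results of these data known. Named genes were the members, the 5 nearest genes to each, the largest called changes of each list and a set of anchors, and others are said to be chosen later, including the receptor kinase family. Frs2, an anchor, was not analysed here. Alternatives changed scaling, floor, filter, probe set rule, unit, thresholds, variance prior, array weights, block and arrays. Motifs were searched in RefSeq promoter sequences.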

Additional observations from a re-analysis of the deposited data

How the results depend on the processing

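Met was called higher under every alternative run, with log2 fold changes between 4.92 and 5.26, and Gab1 was lower under every one, between -1.99 and -1.74. Gab1 at -1.84 was not called at a 4-fold minimum, since its 3.59-fold change falls short of it. Hgf was called under none, and was left out by the filter on dim genes, so it has no value there. Without single arrays Hgf ran from -0.045 to 0.022, so its sign is not settled. Over all genes, 4951 rows were called when every probe set was tested, 9126 genes without a minimum fold, 1010 at a 4-fold minimum and 1713 in limma's test against a 2-fold difference, against 3212. Without a minimum fold, 84 pathway genes passed, 57 higher and 27 lower, and at a 4-fold minimum 6 were lower. The remaining alternatives gave 36 to 42 called pathway genes, or 27 at a 4-fold minimum, against 40. Uncalled genes near 0 changed sign. Mst1r stood at -3.24e-03 with array medians subtracted, at -0.020 with quantile normalization and between -0.059 and 0.074 without single arrays. Spry4 stood at 0.010 with quantile normalization. Slc25a21 stood at -0.022 with medians subtracted, -0.017 with quantile normalization and -9.54e-03 with array weights. Without single arrays it ran from -0.028 to 0.025, Vmn1r222 from -0.037 to 0.028, 4933406I18Rik from -0.052 to 0.039 and Prl3c1 from -0.027 to 0.030. The cause of these changes was not tested.

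The titles do not say whether equally numbered samples were paired. Deviations from the group means correlated at -0.11, -0.22 and 0.01 between equally numbered samples. Between differently numbered samples they correlated at -0.08 to 0.20. With 3 samples per group these values cannot settle whether samples were paired. With a replicate block Met stood at 5.07 (limma, adjusted p = 3.15e-06), Hgf at -0.014 (adjusted p = 0.94) and Gab1 at -1.84 (adjusted p = 6.96e-05), and 3213 genes were called. Arrays without detection calls cannot separate a dim gene such as Hgf from background.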

Other observations

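Several pairs of related genes in and around the pathway were called in opposite directions, named here after their values were seen. Gab1 stood at -1.84 and Gab2 at 2.25, Nrp2 at -1.74 and Nrp1 at 2.08, and the orphan-type receptors Ror2 and Ror1 at -1.24 and 2.84. The ephrin receptors Epha4 and Epha3 stood at -2.02 and 1.83. Because both genes of each pair were called, their 95% intervals lay on opposite sides of 0 by that choice. In other pairs 1 gene was called and its relative was not. Pik3cb, a PI3 kinase catalytic subunit, stood at -3.12 and Pik3ca at 0.90, and Elmo1 stood at -2.82 and Elmo2 at 0.69. Sos2 was at 2.03 and Sos1 at 0.15. Whether such pairs are more frequent here than elsewhere was not tested, and probe sets of related genes can share sequence.

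A pair of negative regulators, Errfi1 and Lrig1, is named here after values were seen. They are 2 of the 4 higher members among 25 measured, whose median log2 fold change was 0.013. Errfi1, an inhibitor of the epidermal growth factor receptor, rose by 2.97, from 7.61, 7.65 and 7.76 in ES to 10.39, 10.96 and 10.57 in Pax7-GFP samples (limma, adjusted p = 1.18e-06). Lrig1, a transmembrane protein that promotes loss of growth factor receptors, Met among them, rose by 2.76, from 7.28, 7.60 and 7.50 to 10.20, 10.17 and 10.28 (limma, adjusted p = 2.65e-07).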
